A study of Mus musculus with 6 samples.

Results

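The genes described are 9 that encode aminotransferases and enzymes of proline and ornithine metabolism, and their levels are those in hearts of sham-operated mice. The genes were chosen by name as a list, and all 9 of 9 were found among the 17447 gene symbols of the count table. The series holds 6 heart RNA libraries of wild-type mice, 3 from mice with chronic kidney disease (CKD) and 3 from sham-operated mice. CKD was produced by subtotal nephrectomy, in which both poles of the left kidney were removed and the right kidney was taken out in a second operation. Sham-operated mice had the same anaesthesia, opening of the abdomen and exposure of the kidneys, with no kidney tissue removed. Every sample carried the same batch label. Strain, sex, age and time after surgery are not given in the labels, which name the samples by group and number only and do not say that each is a separate animal.

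Aminotransferases move an amino group from an amino acid to a keto acid with the help of a vitamin B6 cofactor. The aspartate enzymes Got1 and Got2 link glutamate and alpha-ketoglutarate to aspartate and oxaloacetate on either side of the mitochondrial membrane, and with the malate dehydrogenases they form the malate-aspartate shuttle, which carries reducing equivalents from glycolysis into cardiac mitochondria. The alanine enzymes Gpt and Gpt2 exchange alanine and pyruvate in the same way. Proline and ornithine meet glutamate at a shared intermediate, pyrroline-5-carboxylate. Aldh18a1 and Pycr1 make proline from glutamate, Prodh and Aldh4a1 turn proline back into glutamate, and Oat connects ornithine to the same intermediate.

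The row labels were checked before any level was read. Across all rows, the Spearman correlation lay between 0.984 and 0.987 within CKD (3 pairs), between 0.982 and 0.985 within sham (3 pairs) and between -0.0586 and -0.0528 when a CKD column was set against a sham column (9 pairs). The correlations run across genes, and genes do not count as replicates. The row labelled Got2 held 163, 168 and 173 counts in the CKD columns, against 14616, 14950 and 15932 in the sham columns. The row labelled Oat held 7, 1 and 1 counts in the CKD columns, against 2680, 2740 and 3195 in the sham columns. Of the 9 rows, 2 were higher in every CKD column than in any sham column and 6 were lower, while of all 17360 rows with a count 44.4% were higher and 45.7% were lower in this way. The CKD values did not correspond to the sham values under the same labels, so the CKD columns were used for no gene level, and no change of these genes in CKD is reported.

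Column totals in the sham hearts were 10480788, 10474487 and 12669724. A level is given in CPM (counts per 1000000 counts of the column), and errors are SDs over the 3 hearts. Levels of different genes are compared in CPM per kb, the CPM divided by the length of all annotated exons of the gene in kb. Intervals of single counts are exact 95% Poisson intervals and cover counting error only. The ventricular cardiomyocyte markers summed to 153302, 166746 and 150754 CPM in sham 1, 2 and 3, and all 16 were above 1 CPM. Liver is rich in several of these enzymes, and of 7 liver markers 1 averaged at least 1 CPM, which was Ahsg at 5.83 ± 3.63 CPM.

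Together the 9 genes took 3276 ± 345 CPM (SD, n = 3), which was 0.328% of the sham counts. All 9 averaged at least 1 CPM, 8 at least 10 CPM and 4 at least 100 CPM. The share of Got1 and Got2 in this sum was 82.9%, 83.5% and 80.6% in the 3 hearts. The 5 aminotransferases together made up 93.0% ± 0.675. The level of the list as a whole is therefore mostly that of the aspartate enzymes.

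**Figure D1:**
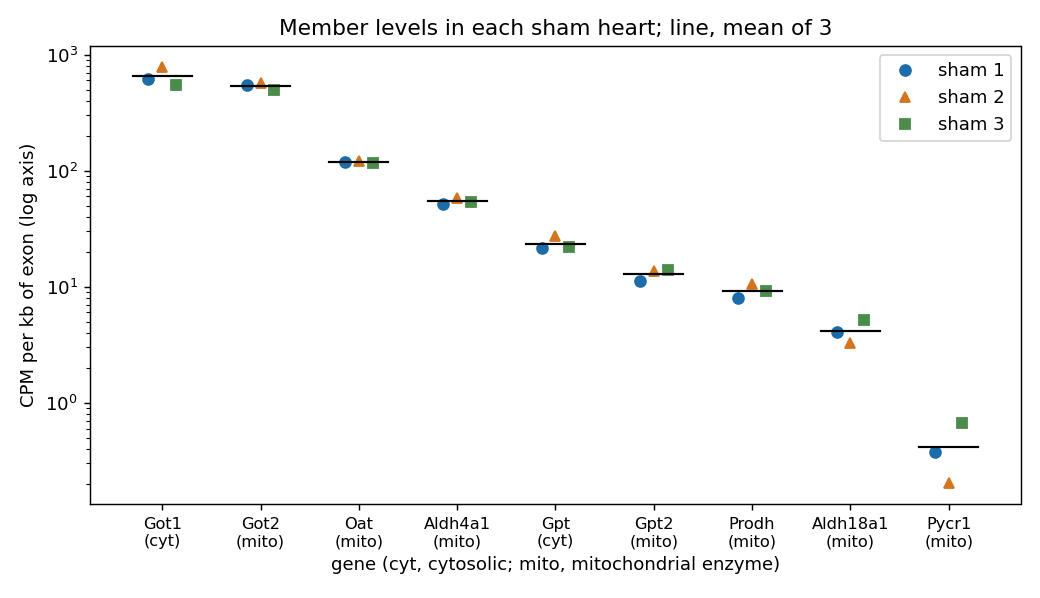
The plot shows CPM per kb of exon on a log axis for the 9 genes in each of the 3 sham hearts, ordered by mean, with cyt for cytosolic and mito for mitochondrial enzymes and a line at the mean. Got1 and Got2 lie at 652 and 537, and Pycr1 lies lowest at 0.418.

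Got1, the cytosolic aspartate aminotransferase, had the highest level per length of the 9. It gave 13364, 16949 and 14354 counts, or 1275 CPM in sham 1, 1618 CPM in sham 2 and 1133 CPM in sham 3. The value in sham 2 stood above the other two, and its 95% counting interval of 1594 to 1643 CPM did not reach theirs. The mean was 1342 ± 249 CPM, and per length 652 ± 121 CPM per kb, which placed Got1 at rank 85 of the 16835 genes with an annotated exon length.

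Got2, the mitochondrial form, gave 14616, 14950 and 15932 counts, or 1395 CPM in sham 1, 1427 CPM in sham 2 and 1257 CPM in sham 3. Its hearts lay closer together, with a mean of 1359.8 ± 90.1 CPM and 537 ± 35.6 CPM per kb, at rank 108. The coefficient of variation (CV) between hearts was 18.6% for Got1 and 6.62% for Got2, where counting alone would give 0.819% and 0.813%. With TMM it was 22.8% for Got1 and 9.94% for Got2, and with DESeq2 size factors 23.2% and 10.3%. Both genes thus varied between hearts by more than counting error. Over the 8864 genes averaging at least 10 CPM the median CV was 9.32%, and 83.5% of them had a smaller CV than Got1.

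In each heart the cytosolic form was set against the mitochondrial one. Per kb of exon, Got1 was 1.12-fold of Got2 in sham 1, 1.39-fold in sham 2 and 1.11-fold in sham 3. The mean log2 ratio of Got1 over Got2 was 0.27 ± 0.19 (SD, n = 3), with Got1 higher in 3 of 3 hearts (exact two-sided sign-flip permutation p = 0.25, adjusted p = 0.25 over 4 ratios). A p of 0.25 is the smallest that 3 hearts can give. With coding length in place of exon length, the mean was 0.03 ± 0.19 and Got1 was higher in 1 of 3 hearts. The 2 forms were therefore not separated beyond the choice of length. The share of Got1 in the counts of both genes needs no length. Got1 supplied 53.1% of the Got1 and Got2 counts in sham 2 (exact binomial 95% interval 52.6% to 53.7%), against 47.8% (47.2% to 48.4%) in sham 1 and 47.4% (46.8% to 48.0%) in sham 3. These intervals cover counting error only and take reads as independent molecules, so they do not test a difference between hearts beyond these libraries.

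The windows upstream of both genes are shown because Got1 and Got2 differ in the matches described below. They are the 250 bases before the annotated start, from RefSeq on build GRCm38.p6, given 5' to 3' on the strand of the gene. Capitals in Got1 mark a match, on the opposite strand, to TGATGNAA, the core of the C/EBP-ATF response element that is bound by ATF4 in the amino acid response. The Got1 window is chr19:43524606-43524855 and the Got2 window chr8:95888402-95888651, both on the minus strand.
Got1: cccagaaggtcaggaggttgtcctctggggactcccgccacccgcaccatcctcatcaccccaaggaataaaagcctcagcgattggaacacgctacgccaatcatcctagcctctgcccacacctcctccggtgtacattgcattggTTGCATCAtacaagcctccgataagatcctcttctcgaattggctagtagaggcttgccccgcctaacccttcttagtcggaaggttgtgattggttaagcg
Got2: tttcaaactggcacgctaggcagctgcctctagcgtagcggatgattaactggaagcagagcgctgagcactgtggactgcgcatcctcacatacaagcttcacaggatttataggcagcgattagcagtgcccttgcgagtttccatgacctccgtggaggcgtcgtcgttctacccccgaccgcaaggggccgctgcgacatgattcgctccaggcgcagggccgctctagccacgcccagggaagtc
The Got1 match covers the bases 102 to 95 before the start. Got2 held no match to that core. The Got1 window also held 5 matches to CCAAT on either strand, one of which ends directly beside the response element core, and the Got2 window held none. Of all 32851 promoter windows of this length in the table, 3.45% held the core and 33.8% held CCAAT. The mitochondrial genes Oat, Aldh4a1 and Pycr1 also held CCAAT, and Pycr1 also held the core, so neither word goes with the compartment. A match describes letters in this window only.

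Gpt and Gpt2, the alanine aminotransferases, stood far below the aspartate forms. Gpt, the cytosolic enzyme, gave 425, 536 and 524 counts, or 40.6 CPM in sham 1, 51.2 CPM in sham 2 and 41.4 CPM in sham 3. Sham 2 was again the highest, and its counting interval of 46.9 to 55.7 CPM did not overlap that of sham 1 (36.8 to 44.6) or of sham 3 (37.9 to 45.1). Gpt2, the mitochondrial enzyme, gave 427, 517 and 647 counts, or 40.7 CPM in sham 1, 49.4 CPM in sham 2 and 51.1 CPM in sham 3. Its lowest heart was sham 1, and sham 2 and sham 3 lay within each other's counting intervals. The means were 44.4 ± 5.91 CPM for Gpt and 47.1 ± 5.53 CPM for Gpt2, close to each other as counts. Per kb of exon they were 23.5 ± 3.14 for Gpt and 12.9 ± 1.52 for Gpt2.

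The mean log2 ratio of Gpt over Gpt2 per kb of exon was 0.86 ± 0.19 (SD, n = 3), with Gpt higher in 3 of 3 hearts (exact two-sided sign-flip permutation p = 0.25, adjusted p = 0.25). That ratio was 1.92-fold in sham 1, 2.00-fold in sham 2 and 1.56-fold in sham 3. It rests on the annotated lengths. Gpt has 396 exon bases outside its coding sequence and Gpt2 has 2073, and per coding length the mean log2 ratio was -0.01 ± 0.19. How much of the annotated Gpt2 exon length is present in cardiac transcripts was not measured here. As a share of the counts of both genes, Gpt was at 49.9%, 50.9% and 44.7% in sham 1, 2 and 3, with exact 95% counting intervals of 46.5% to 53.3%, 47.8% to 54.0% and 41.9% to 47.6%. The interval of sham 3 lay below that of sham 2 and overlapped that of sham 1.

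**Figure D2:**
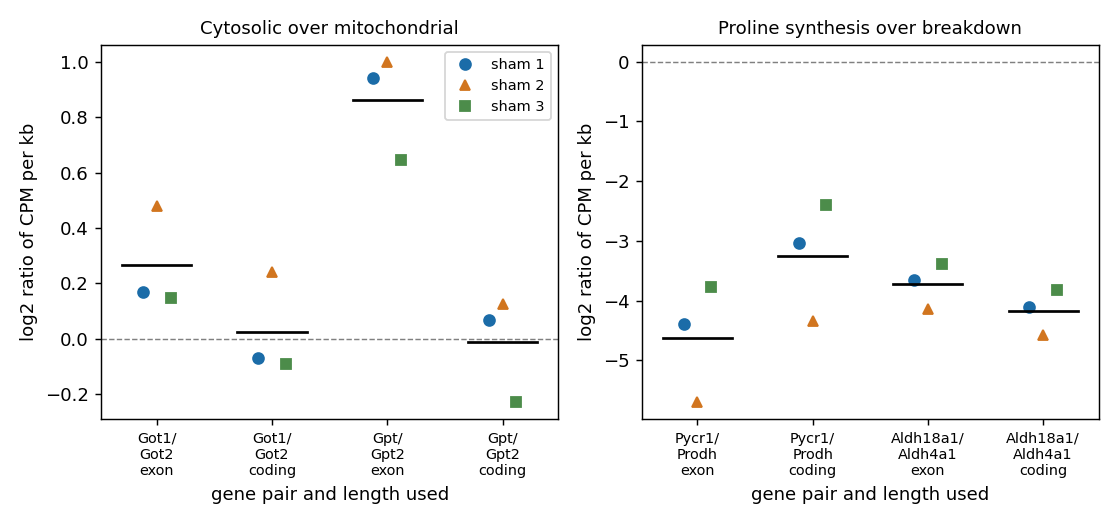
The plot shows the log2 ratio of CPM per kb within each sham heart for 2 pairs of cytosolic over mitochondrial enzymes (left) and 2 pairs of proline synthesis over breakdown (right), with exon or coding length, and a line at the mean. The left pairs move to about 0 with coding length (0.03 and -0.01), while the right pairs stay far below 0 with either length (-4.62 and -3.26, and -3.73 and -4.17).

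Oat, the mitochondrial ornithine aminotransferase, gave 2680, 2740 and 3195 counts, or 256 CPM in sham 1, 262 CPM in sham 2 and 252 CPM in sham 3. The 3 hearts were nearly level. The mean was 256 ± 4.75 CPM, or 119 ± 2.21 CPM per kb, the highest of the 9 genes after the aspartate forms. Its CV of 1.85% was about that of counting alone (1.87%), and 3.07% of genes at 10 CPM or more had a smaller one. That steadiness depends on the scaling, since the CV was 5.91% with TMM and 6.27% with DESeq2 size factors.

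Of the genes around ornithine, 19 of 26 found in the table averaged at least 1 CPM. The arginases, which make ornithine from arginine, were barely read. Arg1 gave 0, 0 and 1 counts and Arg2 gave no count in any of the hearts, a count of 0 that allows up to 0.286, 0.286 and 0.237 CPM. Otc, the urea cycle enzyme that uses ornithine in liver, also gave 0 in each heart. Odc1, which turns ornithine into the polyamine putrescine, was at 72.9 ± 6.57 CPM or 33.0 ± 2.98 CPM per kb, below the 119 CPM per kb of Oat. Slc25a15, the mitochondrial ornithine carrier, was at 19.5 ± 1.21 CPM. These genes were named for their reactions. By highest CPM, the list was led by Amd1, a polyamine synthesis gene, at 110 ± 22.0 CPM, Azin1, which stabilizes ornithine decarboxylase, at 80.8 ± 6.17 CPM and the arginine and ornithine carrier Slc7a1 at 76.6 ± 17.7 CPM.

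Proline synthesis genes were the lowest of the list. Aldh18a1 makes pyrroline-5-carboxylate from glutamate, and gave 150, 122 and 230 counts, or 14.3 CPM in sham 1, 11.6 CPM in sham 2 and 18.2 CPM in sham 3. Sham 3 was the highest and sham 2 the lowest, and their counting intervals (15.9 to 20.7 and 9.67 to 13.9 CPM) did not overlap. The mean was 14.7 ± 3.27 CPM, or 4.17 ± 0.927 CPM per kb.

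Pycr1 reduces pyrroline-5-carboxylate to proline in mitochondria, and gave 15, 8 and 32 counts. That was 1.43 CPM in sham 1, 0.764 CPM in sham 2 and 2.53 CPM in sham 3, with 95% intervals of 0.801 to 2.36, 0.330 to 1.50 and 1.73 to 3.57 CPM. Sham 3 was above sham 2 beyond counting error, and sham 1 could not be told from either at this depth. The mean was 1.57 ± 0.890 CPM, with a CV of 56.5%, where counting alone would give a CV of 23.9%. Pycrl, a relative found in the cytosol of human cells, was at 10.9 ± 0.837 CPM or 8.13 ± 0.625 CPM per kb, where Pycr1 had 0.418 ± 0.236 CPM per kb. Pycrl was named as a relative of Pycr1, outside the rule for other genes.

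The windows upstream of both synthesis genes are shown with 1 regulatory word marked in each. Capitals mark the C/EBP-ATF response element core TGATGNAA in Pycr1, on the strand of the gene, and the E-box CACGTG, a binding word of MYC and related factors, in Aldh18a1. The Pycr1 window is chr11:120643749-120643998 and the Aldh18a1 window chr19:40588464-40588713 (GRCm38.p6, both on the minus strand, from RefSeq).
Pycr1: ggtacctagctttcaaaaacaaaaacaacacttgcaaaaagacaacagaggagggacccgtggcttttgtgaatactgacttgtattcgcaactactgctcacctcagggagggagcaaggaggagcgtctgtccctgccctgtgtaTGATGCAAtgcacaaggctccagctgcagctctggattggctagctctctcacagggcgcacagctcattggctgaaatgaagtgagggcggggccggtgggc
Aldh18a1: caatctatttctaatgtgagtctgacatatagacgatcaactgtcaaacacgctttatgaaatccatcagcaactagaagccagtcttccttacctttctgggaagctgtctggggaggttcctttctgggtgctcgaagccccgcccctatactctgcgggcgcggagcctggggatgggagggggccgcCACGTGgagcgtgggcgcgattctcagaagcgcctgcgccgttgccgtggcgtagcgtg
The Pycr1 core covers the bases 103 to 96 before the start, within a base of its place in Got1. Of the 8 genes of the list with a window in the table (all but Gpt), Got1 and Pycr1 held the core and the other six did not. The E-box was held by Aldh18a1 alone of the 8 and by 6.02% of all windows. The ERR half-site TNAAGGTCA, a word of factors that drive mitochondrial genes in heart, was in 0 of the 8 windows and in 1.14% of all windows. The GC box GGGCGG was in 3 of the 8, which were Aldh18a1, Pycr1 and Gpt2, and in 32.7% of all. CCAAT was in 4 of the 8, which were Aldh4a1, Got1, Oat and Pycr1, and in 33.8% of all. The TATA box TATAAA was in 1 of the 8 and in 12.4% of all. All 6 words were searched on both strands.

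Got1 and Pycr1, which both carry the response element core, lay at opposite ends of the list. They were in opposite order in sham 2 and sham 3, while Pycr1 in sham 1 could not be told from either. Whether ATF4 acts on either gene in these hearts was not tested. Got1 had 1618 CPM in sham 2 and 1133 CPM in sham 3, while Pycr1 had 0.764 CPM in sham 2 and 2.53 CPM in sham 3. Of 25 genes of the ATF4 amino acid response, 23 averaged at least 1 CPM. Of those, 11 had their highest value in sham 1 and 8 had it in sham 3. Of all 12491 genes at 1 CPM or more, 37.0% were highest in sham 1 and 42.0% in sham 3. In sham 2, 13 of the ATF4 genes were lowest, as were 48.8% of all genes at 1 CPM or more. The list summed to 1153, 1057 and 1045 CPM in sham 1, 2 and 3, of which Vldlr alone took 460, 496 and 486 CPM. The sum therefore does not give the order of the single genes over the hearts. Atf4 itself gave 99.8, 81.8 and 92.1 CPM in sham 1, 2 and 3. The list was led in CPM by Vldlr, the very low density lipoprotein receptor, at 481 ± 18.7, and varied most in Ddit4, a stress-induced inhibitor of mTOR signalling, at 140, 42.7 and 27.8 CPM.

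Proline breakdown genes were higher than those of synthesis in each heart. Prodh, the inner membrane enzyme that oxidizes proline, gave 238, 315 and 329 counts, or 22.7 CPM in sham 1, 30.1 CPM in sham 2 and 26.0 CPM in sham 3. Sham 2 was the highest and sham 1 the lowest, and their counting intervals (26.8 to 33.6 and 19.9 to 25.8 CPM) did not overlap. The mean was 26.2 ± 3.69 CPM, or 9.22 ± 1.30 CPM per kb. Prodh2, a hydroxyproline dehydrogenase named here as its relative, gave 0 counts in each heart.

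Aldh4a1, the matrix enzyme that oxidizes pyrroline-5-carboxylate to glutamate, gave 1818, 2054 and 2313 counts, or 173 CPM in sham 1, 196 CPM in sham 2 and 183 CPM in sham 3. Its hearts differed by a small step with sham 2 the highest. The mean was 184 ± 11.4 CPM, or 54.4 ± 3.37 CPM per kb. In the annotation used for lengths, 47.2% of the Aldh4a1 exon bases are shared with Gm21969 on the same strand, and 15.0% of those of Got2 with Gm45760 on the opposite strand. Neither of these symbols is a row of the table, and the strand setting of the counting is not given in the sources used here, so the levels of Aldh4a1 and Got2 are uncertain to that extent. Got2 and Oat also have annotated pseudogenes or related sequences, and how reads shared with them were counted is not known.

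For the step between proline and pyrroline-5-carboxylate, Pycr1 and Prodh were compared per kb of exon. Prodh was 21.0-fold higher than Pycr1 in sham 1, 52.1-fold in sham 2 and 13.6-fold in sham 3. The mean log2 ratio of Pycr1 over Prodh was -4.62 ± 0.99 (SD, n = 3), with Pycr1 higher in 0 of 3 hearts (exact two-sided sign-flip permutation p = 0.25, adjusted p = 0.25). With coding length, Prodh was 8.18-fold higher than Pycr1 in sham 1, 20.3-fold in sham 2 and 5.30-fold in sham 3. The sham 2 value rests on 8 Pycr1 counts with either length. Pycrl carries out the same step and is not in the ratio of Pycr1 over Prodh. For the step between glutamate and pyrroline-5-carboxylate, the mean log2 ratio of Aldh18a1 over Aldh4a1 was -3.73 ± 0.38 (SD, n = 3), with Aldh18a1 higher in 0 of 3 hearts (exact permutation p = 0.25, adjusted p = 0.25). Per kb of exon, as in this mean, Aldh4a1 was 12.6-fold higher in sham 1, 17.6-fold in sham 2 and 10.5-fold in sham 3. With coding length it was 17.1-fold, 23.8-fold and 14.2-fold higher. Both ratios were lowest in sham 2.

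The order of the 9 genes per kb of exon was Got1, Got2, Oat, Aldh4a1, Gpt, Gpt2, Prodh, Aldh18a1 and Pycr1. Of the 8 pairs of neighbours, 1 had overlapping ranges over the hearts, which was Got1 with Got2 (551 to 786 and 497 to 564 CPM per kb). The step from Got2 to Oat was 4.51-fold in means and that from Aldh18a1 to Pycr1 9.98-fold. With coding length these steps were 5.41-fold and 3.63-fold. Per coding length Gpt and Gpt2 also overlapped. By compartment, the 2 cytosolic genes summed to 676 ± 124 CPM per kb and the 7 mitochondrial genes to 738 ± 37.6 CPM per kb. Without Got2, the other 6 mitochondrial genes summed to 200.3 ± 6.73 CPM per kb.

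**Figure D3:**
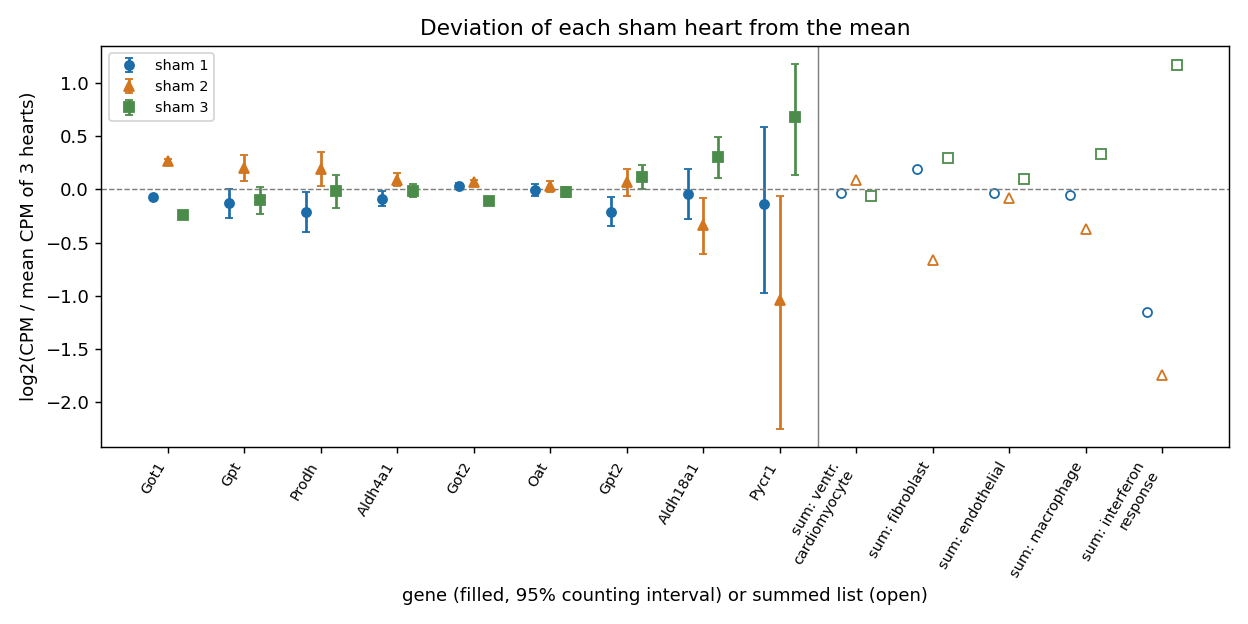
The plot shows log2 of the CPM in each sham heart over the mean of the 3, for the 9 genes (filled, with 95% counting intervals) and for summed gene lists (open). Got1 in sham 2 lies above 0 and Aldh18a1 and Pycr1 in sham 2 lie below 0. The fibroblast, endothelial, macrophage and interferon sums are also lowest in sham 2, and the ventricular cardiomyocyte sum is highest there.

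The 9 genes did not move together over the 3 hearts. Scaled to column totals, 6 were highest in sham 2 (Got1, Got2, Gpt, Oat, Aldh4a1 and Prodh) and 3 in sham 3 (Gpt2, Aldh18a1 and Pycr1). Of all 12491 genes at 1 CPM or more, 21.0% were highest in sham 2 and 42.0% in sham 3. With TMM or DESeq2 size factors Gpt2 was also highest in sham 2, which made 7. Aldh18a1 and Pycr1 were the 2 genes lowest in sham 2, under every scaling tried, as were 48.8% of all genes at 1 CPM or more with column totals. The summed ventricular cardiomyocyte markers were highest in sham 2, with 12 of 16 highest there. The fibroblast markers summed to 4896, 2706 and 5290.2 CPM in sham 1, 2 and 3, and 15 of 16 were lowest in sham 2. Macrophage markers summed to 642, 512 and 839 CPM and the interferon response genes to 293, 194 and 1465 CPM, highest in sham 3, as Aldh18a1 and Pycr1 were. Endothelial markers differed less, with 2716, 2626 and 2979 CPM. Atrial markers summed to 5087, 1440 and 1908 CPM and immediate early genes to 852, 305 and 367 CPM, both highest in sham 1, where none of the 9 genes was highest. Of 15 glucocorticoid-responsive genes at 1 CPM or more, 11 were also highest in sham 1. Adipocyte markers summed to 19.2, 1.34 and 18.3 CPM and blood markers to 111, 83.2 and 486 CPM. Whether these differences between hearts have a part in the levels of the 9 genes was not tested, and in whole tissue fewer cells of a type and less RNA per cell cannot be told apart.

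Among the other parts of the malate-aspartate shuttle, 6 of 7 genes averaged at least 1 CPM. Per kb of exon Mdh1, the cytosolic malate dehydrogenase, was at 1215 ± 88.5 and Mdh2, the mitochondrial one, at 1234 ± 57.4, each above Got1 and Got2. Mdh1 gave 2519, 2788 and 2427 CPM in sham 1, 2 and 3 and Mdh2 gave 1793, 1882 and 1714 CPM, so both were highest in sham 2 and lowest in sham 3, as Got1 and Got2 were. Slc25a11, the carrier that exchanges malate for alpha-ketoglutarate, was at 399 ± 33.0 CPM per kb. The aspartate-glutamate carriers Slc25a12 and Slc25a13, named for their part in the shuttle, were at 53.4 ± 3.95 and 55.8 ± 4.68 CPM per kb. In all, 5 of the 6 were lowest in sham 3, the exception being the glutamate carrier Slc25a22 at 46.0, 49.9 and 67.8 CPM. Among all 12491 genes at 1 CPM or more, 23.7% were lowest in sham 3.

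Of 14 other aminotransferase genes in the table, 9 averaged at least 1 CPM and 3 were at 0 in each heart. Bcat2, the mitochondrial branched-chain aminotransferase, led them at 122 ± 16.9 CPM or 49.0 ± 6.81 CPM per kb, with a mean between those of Aldh4a1 and Gpt. Kyat1 and Kyat3, which act on kynurenine and glutamine, were at 17.5 ± 0.417 and 8.73 ± 1.41 CPM per kb. Abat, the mitochondrial GABA aminotransferase, varied most, with 57.5, 22.1 and 26.0 CPM in sham 1, 2 and 3. Of 15 genes of proline handling and collagen hydroxylation, 10 averaged at least 1 CPM. P4hb, a subunit of the prolyl hydroxylase that modifies collagen, led at 98.4 ± 7.96 CPM per kb. The catalytic subunit P4ha1 was at 15.1 ± 2.53 CPM per kb and lowest in sham 2. Another catalytic subunit, P4ha2, named for the same reaction, was at 23.0 ± 4.12 CPM per kb and lowest in sham 1. Slc38a2, a carrier of glutamine, alanine and proline, was at 45.2 ± 4.96 CPM per kb.

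**Figure D4:**
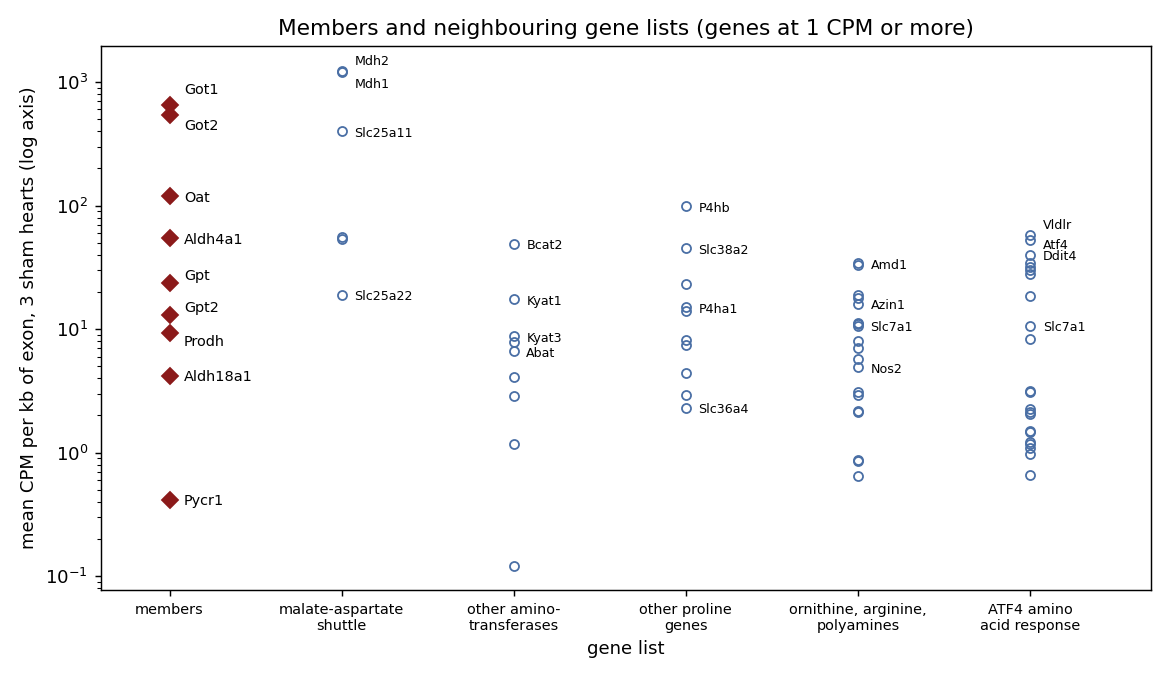
The plot shows mean CPM per kb of exon over 3 sham hearts on a log axis, for the 9 genes (diamonds) and for genes at 1 CPM or more in 5 neighbouring lists (circles), with names for those chosen by rule. Got1 and Got2 lie below Mdh1 and Mdh2 and above Bcat2, the highest named gene of the other aminotransferases at 49.0.

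For genes averaging at least 10 CPM, the closest patterns were sought among 8863 other genes at that level, as the smallest largest difference in log2 of CPM over mean CPM across the 3 hearts. Foxo3, a transcription factor, was closest to Got1 with a largest difference of 0.0084, followed by Ednra and Fign. The closest to Got2 was Lsm8 (0.0038), to Gpt Ccdc141 (0.0028), to Gpt2 Saraf (0.00097), to Oat Inpp5k (0.00078), to Aldh18a1 Cdk10 (0.016) and to Aldh4a1 Dctn6 (0.0026). With 3 hearts such closeness is common. Within 0.05 there were 723 genes for Oat and 450 for Got2, but 17 for Got1 and 28 for Aldh18a1.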

How the data were processed

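Total RNA from 6 mouse hearts was sequenced. The submitters' processing notes name the tools Trimmomatic, HISAT2, HTSeq and DESeq and the build mm9, with no version or setting. The authors deposited 1 table of raw read counts by gene symbol, with a column for each heart that carries its title. The 9 genes, the other lists and the tests were chosen with earlier results of these data known, and the motifs and the exon length were set after the data were seen.

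CPM was computed from the column totals, without a filter on low values. Exon length was the union of exons in the GENCODE M21 basic annotation (GRCm38), available for 16835 of 17447 rows, with coding length and longest transcript as alternatives. The annotation that was counted is not known, so length-scaled levels are approximate. Ratios between genes were tested within hearts with an exact sign-flip permutation test in scipy 1.17.1 and Benjamini-Hochberg adjustment. TMM in edgeR 4.0.16, DESeq2 1.42.0 size factors, the column total without the 10 highest rows, and leaving out each heart were tried for the levels. Other genes were named by a rule: the 3 with the highest mean CPM in each list and the 1 with the largest CV among those at 10 CPM or more. Genes named for their reaction, relation to 1 of the 9, or low count fall outside it and were chosen after their values were seen. Promoter windows came from RefSeq (GRCm38.p6). The steps were tested on simulated data. The depth of 10474487 to 12669724 counts leaves up to 0.286 CPM unseen at a count of 0, where 3 counts are allowed.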

Additional observations from a re-analysis of the deposited data

Results flagged for a closer look

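The CKD columns entered no result, and their row labels did not match their values. In them the row labelled Gpt had a mean of 91.2 CPM, above 40.6, 51.2 and 41.4 CPM in sham 1, 2 and 3. The row labelled Pycr1 had a mean of 26.5 CPM in the CKD columns, above 1.43, 0.764 and 2.53 CPM in sham 1, 2 and 3. Neither value is read as a level of the named gene in CKD hearts.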

How the results depend on the processing

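With TMM, DESeq2 size factors or 1 heart left out, all 9 levels moved by less than 1 SD. With 3 hearts, a mean cannot shift by over 1 SD when a single heart is dropped. Without the 10 highest rows in the column total, the summed level was 3817 CPM in place of 3276, and 6 of 9 levels moved by over 1 SD because every level is scaled up. The log2 ratio of Gpt over Gpt2 was -0.013 with coding length in place of 0.86, and pairs of neighbours in overlap were 2 with coding length and 2 with the longest transcript, in place of 1. The longest transcript was chosen after seeing the data. The mean of Got1 over Got2 was 0.03 with coding length, with Got1 higher in 1 of 3 hearts in place of 3. Pycr1 over Prodh and Aldh18a1 over Aldh4a1 were below 0 under coding length, longest transcript, CPM + 1 and leaving out each heart. With TMM the CV was 9.94% for Got2 and 5.91% for Oat, in place of 6.62% and 1.85%. No ratio could pass a threshold, since the smallest p is 0.25 with 3 hearts and 0.5 with 2. The highest correlation between CKD and sham columns was -0.119 for rows with at least 10 counts. With that filter the percentile per kb of Pycr1 was 10.5 in place of 28.4, because low rows are left out. No paired analysis was possible because the CKD columns entered no test. Pycr1, with 8 to 32 counts, is the gene most limited by depth.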
